A study of Homo sapiens with 6 samples.

Results

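The enzymes of serine synthesis and of the folate one-carbon cycle were followed in the RNA of liver cancer cells treated with compound 6j. The 9 genes were found in the count table by their symbols, a rule that uses no measured value, although the set was chosen with earlier results of these data known. They were PHGDH, PSAT1 and PSPH of serine synthesis, SHMT2, MTHFD2, MTHFD1L and ALDH1L2 of the mitochondrial folate arm, and SHMT1 and MTHFD1 of the cytosolic arm. Each had 1 row among the 25445 rows of the table, and all 9 were among the 15957 rows that passed the filter on low counts (filterByExpr of edgeR) and were tested. MHCC-97H, an established cell line from a human hepatocellular carcinoma, had been given 10 μM of 6j for 16 h, and is called 6j treated. The compound 6j derives from sophoridine, an alkaloid found in plants. Non-treated cells were the same line with solvent alone for the same time. There were 3 libraries in each group, numbered 1 to 3, so the results hold for 1 line, 1 dose and 1 time. The methods say in general that experiments were repeated, but neither they nor the labels say that these libraries came from separate cultures, so p-values measure the spread between these libraries, which may be technical.

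Serine is made from the glycolytic intermediate 3-phosphoglycerate, which PHGDH oxidizes, PSAT1 transaminates and PSPH dephosphorylates. SHMT1 in the cytosol and SHMT2 in mitochondria then move a carbon from serine to tetrahydrofolate and leave glycine. In mitochondria MTHFD2 oxidizes the folate-bound carbon, MTHFD1L releases it as formate and ALDH1L2 releases it as carbon dioxide, while the cytosolic enzyme MTHFD1 takes formate back into the folate cycle for purine and thymidylate synthesis. Tumor cells often depend on these steps, and ATF4, the transcription factor of the amino acid response, is a known activator of serine synthesis genes.

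The total count was 31533403 to 38018349 per library. None of 9 hepatocyte markers was above 1 CPM (CPM is the count relative to the TMM-scaled library size) in every library, and TTR was at 0 in all 6. These markers therefore give no support to the liver origin of MHCC-97H, the line that the labels name. Of the epithelial markers, KRT8 and KRT18 were high in every library, while CDH1 was at 0.106 to 0.345 CPM and EPCAM at 0 in all. The summed level of the 4 epithelial markers was 904 to 1109 CPM in non-treated and 705 to 823 CPM in 6j treated cells. KRT8, with a log2 fold change of −0.58 (adjusted p = 0.0211, edgeR's quasi-likelihood test with Benjamini-Hochberg adjustment), lay just under the fold threshold, and the part of this shift in the results was not tested. Among markers of other cells, PTPRC, CD3E and COL1A2 were at 0 in every library, but CD68 was at 39.8 to 70.5 CPM and COL1A1 at 203 to 275 CPM. PDGFRB (3.77 to 6.81 CPM), CDH5 (1.41 to 5.93 CPM) and PECAM1 (0.222 to 0.776 CPM) were also detected in every library. LYZ, VWF and LUM did not exceed 0.212 CPM, and no marker was called. In bulk RNA, fewer cells of a kind and less RNA per cell cannot be told apart.

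The 3 serine synthesis genes rose in 6j treated cells, as did SHMT2 and MTHFD2, the mitochondrial enzymes next in line. PHGDH rose 2.56-fold, PSAT1 2.28-fold, PSPH 2.11-fold, SHMT2 2.06-fold and MTHFD2 1.59-fold. MTHFD1L, ALDH1L2, SHMT1 and MTHFD1 were not called. A gene was called a differentially expressed gene (DEG) where its fold change passed 1.5 and its adjusted p was under 0.05, in edgeR's quasi-likelihood test with Benjamini-Hochberg adjustment over all 15957 rows. By this rule 5 of the 9 enzymes were higher, against 2.48% of all rows, and 0 of the 9 were lower, against 1.12% of all rows. MTHFD1 was the 1 member lower at an unadjusted p under 0.05 in edgeR, where its p ranked 1900 among the 15957 rows. DESeq2 called the same 5 enzymes higher and 0 lower, beside 3.74% and 1.78% of the rows it tested. The median log2 fold change of the 9 enzymes was 0.67, beside 0.00 over all rows tested. In CPM, the 6j treated libraries all lay above the non-treated ones for 6 enzymes, as held for 16.0% of all rows. They all lay below for 1 enzyme, MTHFD1, as held for 15.8% of all rows, and the groups overlapped for MTHFD1L and ALDH1L2.

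**Figure D1:**
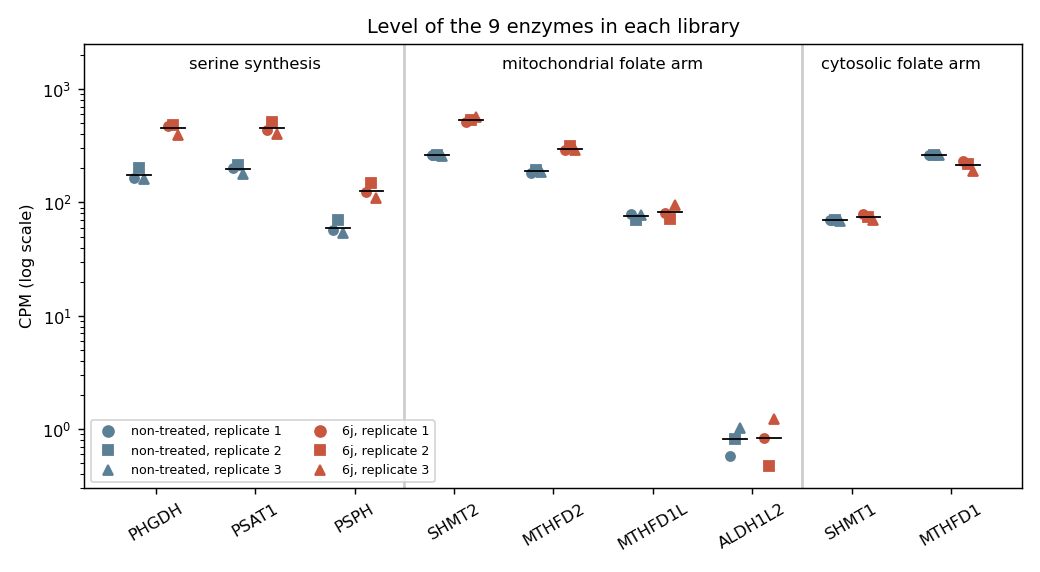
Level of each of the 9 enzymes in each library, in CPM on a log axis, with blue for non-treated and red for 6j treated cells, a symbol for each replicate number and a bar at each group mean. The red points lie clear above the blue for PHGDH, PSAT1, PSPH, SHMT2 and MTHFD2, just above for SHMT1, below for MTHFD1, and among them for MTHFD1L and ALDH1L2.

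As a share of each library, the 9 enzymes together held 0.123% to 0.134% of the raw counts in non-treated cells and 0.208% to 0.241% in 6j treated cells. The summed level of PHGDH, PSAT1 and PSPH was 422, 486 and 395 CPM in non-treated replicates 1 to 3 and 1031, 1144 and 908 CPM in the 6j treated ones. For the 4 mitochondrial enzymes the sum was 522, 525 and 525 CPM against 879, 920 and 950 CPM. The 2 cytosolic enzymes summed to 334, 332 and 329 CPM against 310, 291 and 260 CPM. The 9 genes lie on 8 chromosomes, since SHMT2 and ALDH1L2 are both on chromosome 12.

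The promoters of these genes were read to show what the enzymes share in sequence. RefSeq (GRCh38.p14) gave a promoter for 6 of the 9 genes, PHGDH, PSAT1, MTHFD2, MTHFD1L, SHMT1 and MTHFD1. The 250 bases before each transcription start were searched on both strands for the CCAAT box (CCAAT, bound by NF-Y), the C/EBP-ATF composite element (TGATGNAA, bound by ATF4 dimers), the E-box of MYC (CACGTG) and the core of the antioxidant response element (TGACNNNGC). A CCAAT box was in at least 1 promoter of each of the 6 genes, and 32.0% of 35116 single promoters held one. The shares here and below count promoters and not genes, so a gene with several, as MTHFD1L with 4, has more chances of a match. PSAT1 had 3 boxes and MTHFD2 had 2, and SHMT1, whose RNA was not called, also had 2. These promoters are printed up to the first annotated exon base, with the box in capitals, or its reverse complement where it lies on the other strand.
PSAT1 (chr9:78296875-78297124, plus strand): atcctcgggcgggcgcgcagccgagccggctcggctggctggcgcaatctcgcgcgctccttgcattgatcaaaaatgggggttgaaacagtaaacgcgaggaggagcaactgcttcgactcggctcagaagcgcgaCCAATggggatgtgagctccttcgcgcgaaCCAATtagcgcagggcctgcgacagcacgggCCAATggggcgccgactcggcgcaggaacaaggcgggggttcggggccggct
MTHFD2 (chr2:74198365-74198561, plus strand): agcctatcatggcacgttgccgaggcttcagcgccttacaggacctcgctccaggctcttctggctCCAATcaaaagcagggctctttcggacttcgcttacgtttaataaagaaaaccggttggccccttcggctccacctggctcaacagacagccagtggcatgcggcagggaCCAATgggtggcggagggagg
SHMT1 (chr17:18363564-18363800, minus strand): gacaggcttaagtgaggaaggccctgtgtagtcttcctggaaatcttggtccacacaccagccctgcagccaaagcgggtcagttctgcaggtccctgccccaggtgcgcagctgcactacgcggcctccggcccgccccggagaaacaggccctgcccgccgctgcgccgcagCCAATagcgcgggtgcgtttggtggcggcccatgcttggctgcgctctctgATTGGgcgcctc

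PHGDH held 1 CCAAT box, and its 30 base window is printed in place of the promoter because the annotation places exons there.
PHGDH (chr1:119711851-119711880, plus strand): gagtatttccgtCCAATcaaaaggagactg
The composite element was found for MTHFD1L, whose RNA was not called, and for none of the other 5 genes, and 3.14% of all promoters held it. MTHFD1L has 4 promoters in RefSeq, and the match, in capitals below, fell within 2 of the 4 windows.
MTHFD1L (chr6:150866346-150866375, plus strand): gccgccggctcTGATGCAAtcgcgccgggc
The E-box was in promoters of MTHFD1L and MTHFD1, beside 6.34% of all promoters, and the antioxidant core, held by 10.9% of all promoters, was in none of the 6. No match overlapped another, and a match of letters describes the sequence and says nothing of binding.

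PHGDH (ENSG00000092621, chromosome 1, 119648411 to 119744226, plus strand), which commits 3-phosphoglycerate to serine, was at 166, 200 and 162 CPM in non-treated replicates 1 to 3 and at 473, 481 and 396 CPM in the 6j treated ones. The lowest 6j treated library stood well above the highest non-treated one. The means were 176 ± 21.1 and 450 ± 46.8 CPM (SD, n = 3). The log2 fold change was 1.36 ± 0.11 (SE), with a 95% interval of 1.10 to 1.62 (adjusted p = 0.000839, edgeR's quasi-likelihood test with Benjamini-Hochberg adjustment), which ranked 13 by p among all rows. Within the replicate numbers the change was 1.51, 1.27 and 1.29 on the log2 CPM scale. Raw counts of 5623 to 6305 in non-treated and 13615 to 18199 in 6j treated libraries stood behind these values.

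PSAT1 (ENSG00000135069, chromosome 9, 78297143 to 78330093, plus strand), the aminotransferase of the second step, was at 199, 216 and 180 CPM in non-treated and at 436, 515 and 403 CPM in 6j treated replicates 1 to 3. Again no library of one group reached the other. In edgeR the log2 fold change came to 1.19 ± 0.11 (SE), with a 95% interval of 0.93 to 1.44 (adjusted p = 0.00129, edgeR's quasi-likelihood test with Benjamini-Hochberg adjustment). The annotation names 4 pseudogenes after PSAT1, and none of these has a row in the table.

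PSPH (ENSG00000146733, chromosome 7, 56011051 to 56051604, minus strand), the phosphatase that releases serine, was the lowest of the 3 in CPM. It was at 56.7, 69.9 and 53.4 CPM in non-treated and at 123, 148 and 109 CPM in 6j treated replicates 1 to 3. PSPH rose by a log2 fold change of 1.08 ± 0.14 (SE), with a 95% interval of 0.76 to 1.39 (adjusted p = 0.00559, edgeR's quasi-likelihood test with Benjamini-Hochberg adjustment). For PHGDH, PSAT1 and PSPH alike, replicate 2 was the highest and replicate 3 the lowest library in both groups. Blocking on the replicate number gave PSPH an SE of 0.06 in place of 0.14, and the call was the same.

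SHMT2 (ENSG00000182199, chromosome 12, 57229327 to 57234935, plus strand), the mitochondrial serine hydroxymethyltransferase, had the tightest non-treated libraries of the called members, at 261, 260 and 259 CPM. The 6j treated replicates were at 510, 532 and 565 CPM, with replicate 3 the highest and not the lowest. The fitted change of SHMT2 was a log2 fold change of 1.04 ± 0.08 (SE), with a 95% interval of 0.86 to 1.22 (adjusted p = 0.000575, edgeR's quasi-likelihood test with Benjamini-Hochberg adjustment), which ranked 7 by p among all rows. SHMT2 overlaps exons of NDUFA4L2 on the other strand, and whether the counting used strand is not given in the sources used here. NDUFA4L2 was at 34.4 to 53.9 CPM in non-treated and 22.2 to 85.8 CPM in 6j treated libraries, below SHMT2 in each.

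MTHFD2 (ENSG00000065911, chromosome 2, 74198562 to 74217565, plus strand), the dehydrogenase and cyclohydrolase of mitochondria, was at 182, 194 and 187 CPM in non-treated and at 288, 317 and 289 CPM in 6j treated replicates 1 to 3. The groups did not overlap, but the rise was the smallest of the 5. For MTHFD2 the log2 fold change was 0.67 ± 0.08 (SE), with a 95% interval of 0.49 to 0.84 that includes the threshold of 0.58 (adjusted p = 0.0036, edgeR's quasi-likelihood test with Benjamini-Hochberg adjustment). Its exons overlap those of SLC4A5 and AC006030.1 on the other strand, which reached at most 1.08 CPM, and 7 pseudogenes named after MTHFD2 have no row in the table. A formal test of a change above 1.5-fold (glmTreat of edgeR) called 3 members, PHGDH (adjusted p = 0.013), PSAT1 (adjusted p = 0.0235) and SHMT2 (adjusted p = 0.0168), and 0.194% of all rows were called higher by it. PSPH had an adjusted p of 0.141 and MTHFD2 of 1 in the edgeR formal test.

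MTHFD1L (ENSG00000120254, chromosome 6, 150865549 to 151101887, plus strand), the mitochondrial formate-tetrahydrofolate ligase, was at 78.6, 70.2 and 78.1 CPM in non-treated and at 80.3, 71.3 and 94.2 CPM in 6j treated replicates 1 to 3. The groups overlapped, and replicate 3 alone stood clearly higher after 6j. Its log2 fold change was 0.12 ± 0.11 (SE), with a 95% interval of −0.13 to 0.36 that lies wholly under the threshold of 0.58 (adjusted p = 0.558, edgeR's quasi-likelihood test with Benjamini-Hochberg adjustment).

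ALDH1L2 (ENSG00000136010, chromosome 12, 105019784 to 105084577, minus strand), the mitochondrial 10-formyltetrahydrofolate dehydrogenase, was close to the filter on low counts, with 22, 26 and 36 counts in non-treated and 32, 18 and 42 counts in 6j treated replicates 1 to 3. The log2 fold change of 0.05 had a 95% interval of −0.99 to 1.09 (adjusted p = 0.963, edgeR's quasi-likelihood test with Benjamini-Hochberg adjustment), so a change as large as that of SHMT2 was not detectable at this depth. It turned to −0.14 without non-treated replicate 1 and to −0.31 without 6j replicate 3. C12orf45, whose exons lie opposite on the other strand, was at 18.9 to 25.3 CPM, above ALDH1L2 itself, so its few reads cannot be told apart from that gene's without strand.

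SHMT1 (ENSG00000176974, chromosome 17, 18327860 to 18363563, minus strand), the cytosolic counterpart of SHMT2, was at 70.0, 69.9 and 68.6 CPM in non-treated and at 78.4, 74.0 and 70.2 CPM in 6j treated replicates 1 to 3. The groups were apart by only 0.204 CPM. SHMT1 had a log2 fold change of 0.09 ± 0.08 (SE), with a 95% interval of −0.08 to 0.27 (adjusted p = 0.487, edgeR's quasi-likelihood test with Benjamini-Hochberg adjustment). SMCR8, which shares exon sequence with SHMT1 on the opposite strand, was at 94.2 to 127 CPM in non-treated and 147 to 208 CPM in 6j treated libraries and rose by 0.64 on the log2 scale (adjusted p = 0.0351, edgeR). Its part in the SHMT1 counts was not tested.

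MTHFD1 (ENSG00000100714, chromosome 14, 64388031 to 64463457, plus strand), the cytosolic enzyme with 3 activities, was at 264, 262 and 260 CPM in non-treated and at 232, 217 and 190 CPM in 6j treated replicates 1 to 3. All 6j treated libraries lay below all non-treated ones, and they were spread more widely. The fitted log2 fold change was −0.30 ± 0.09 (SE), with a 95% interval of −0.50 to −0.10 (adjusted p = 0.067, edgeR's quasi-likelihood test with Benjamini-Hochberg adjustment). With the replicate block the adjusted p was 0.00528, where 13.9% of all rows were lower at an adjusted p under 0.05, and in DESeq2 it was 0.0191. Within the replicate numbers the change was −0.19, −0.27 and −0.46 on the log2 CPM scale, and in none of the 12 alternative fits did the fold pass 1.5. ZBTB25, whose exons overlap on the opposite strand, was at 43.6 to 59.9 CPM.

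**Figure D2:**
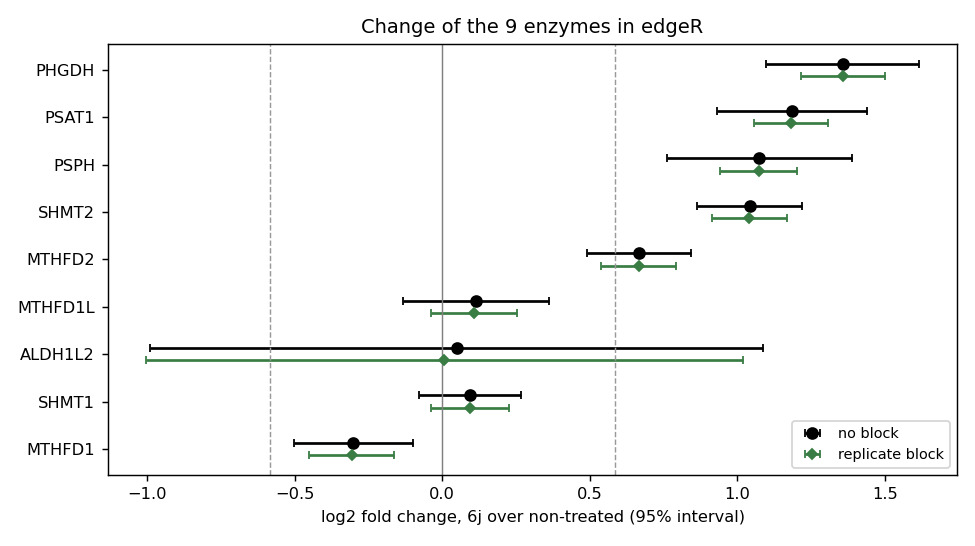
Log2 fold change of the 9 enzymes in 6j treated over non-treated cells from edgeR, with 95% intervals, without a block (black) and with replicate numbers as blocks (green), and dashed lines at a 1.5-fold change. PHGDH, PSAT1, PSPH and SHMT2 lie wholly past the line in both fits, the interval of MTHFD2 crosses it, and that of MTHFD1 lies below 0 without reaching it.

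Levels of different enzymes were compared per length, as RPKM from the median length of each gene's basic protein-coding transcripts. In non-treated cells SHMT2 was the highest at 130 RPKM, then PSAT1 at 110 ± 10.0, MTHFD2 at 101 ± 3.13 and PHGDH at 93.4 ± 11.2 RPKM (SD, n = 3). The ranges of PSAT1 and MTHFD2 overlapped, as did those of MTHFD2 and PHGDH. MTHFD1 followed at 52.7, SHMT1 at 34.0, PSPH at 27.9 and MTHFD1L at 22.8 RPKM, each apart from its neighbour, and ALDH1L2 was last at 0.108 RPKM. In 6j treated cells SHMT2 at 267, PSAT1 at 251 and PHGDH at 239 RPKM overlapped along the order, and MTHFD2 was next at 160 RPKM. PSPH, at 58.7 RPKM, had passed MTHFD1 at 42.8 and SHMT1 at 36.3 RPKM, whose ranges overlapped. MTHFD1L was at 24.7 and ALDH1L2 at 0.112 RPKM. The order rests on the length used, since over all merged exons PSAT1 led in non-treated cells at 90.7 RPKM, ahead of SHMT2 at 53.7 RPKM, and PHGDH at 19.1 RPKM stood below MTHFD1 at 28.0 and PSPH at 21.7 RPKM. In 6j treated cells PSAT1 also led over merged exons, at 206 RPKM against 111 RPKM for SHMT2. By that length PSPH did not pass SHMT1, which was below it already in non-treated cells at 9.54 RPKM.

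**Figure D3:**
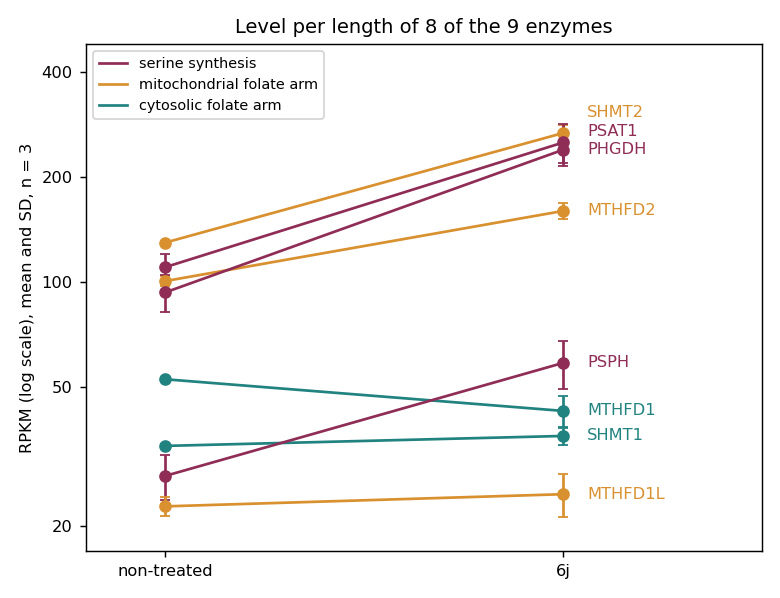
Mean level per length in RPKM (log axis) of 8 enzymes in non-treated and 6j treated cells, with SD bars over 3 libraries and a color for each group of enzymes, ALDH1L2 being left out as it is below the axis. By the coding transcript length used here, the line of PSPH crosses those of MTHFD1 and SHMT1, while the mean of SHMT2 stays on top in both groups. In 6j treated cells the ranges of SHMT2 and PSAT1 overlap. Over merged exons PSAT1 is on top in both groups and PSPH is above SHMT1 in both.

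Ratios within a library show whether paired enzymes changed by unequal amounts. The smallest p that an exact permutation test of 3 against 3 libraries can give is 0.1 (two-sided), so no pair could pass 0.05. Of 7 pairs, 6 were at this p, with a Benjamini-Hochberg adjusted value of 0.117. Here that p means only that the groups did not overlap, and the share over other pairs of genes was not counted. Among single rows, 16.0% did not overlap with 6j higher and 15.8% with 6j lower, so the count of pairs is not read as a result. Each ratio also follows from the changes of its 2 genes and adds no separate support to them. The ratio of mitochondrial SHMT2 to cytosolic SHMT1 was 1.90, 1.90 and 1.92 on the log2 scale in non-treated and 2.70, 2.84 and 3.01 in 6j treated replicates 1 to 3. That is a difference of 0.95 between the group means (exact permutation p = 0.1), higher after 6j in 3 of 3 replicate numbers. The ratio of MTHFD2 to MTHFD1 went from −0.54, −0.44 and −0.47 to 0.31, 0.55 and 0.61, a difference of 0.97 (exact permutation p = 0.1). Its change of sign belongs to CPM, since per length MTHFD2 was above MTHFD1 in both groups. MTHFD1L against MTHFD1 differed by 0.41 (exact permutation p = 0.1), within replicate numbers by 0.22, 0.30 and 0.73. MTHFD2L is another mitochondrial dehydrogenase and was at 2.89 to 5.04 CPM. The ratio of MTHFD2 to MTHFD2L overlapped between the groups, with a difference of 0.37 (exact permutation p = 0.2).

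Within serine synthesis, the ratios of the later enzymes to PHGDH were lower in 6j treated cells. The log2 ratio of PSAT1 to PHGDH differed by −0.18 and that of PSPH to PHGDH by −0.29, and in the next arm that of MTHFD2 to SHMT2 by −0.38 (exact permutation p = 0.1 for each). The groups did not overlap in these 3 ratios, although that of PSAT1 to PHGDH moved by only −0.01 in replicate 2. ALDH1L2 could not be set against cytosolic ALDH1L1, which did not pass the filter on low counts.

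**Figure D4:**
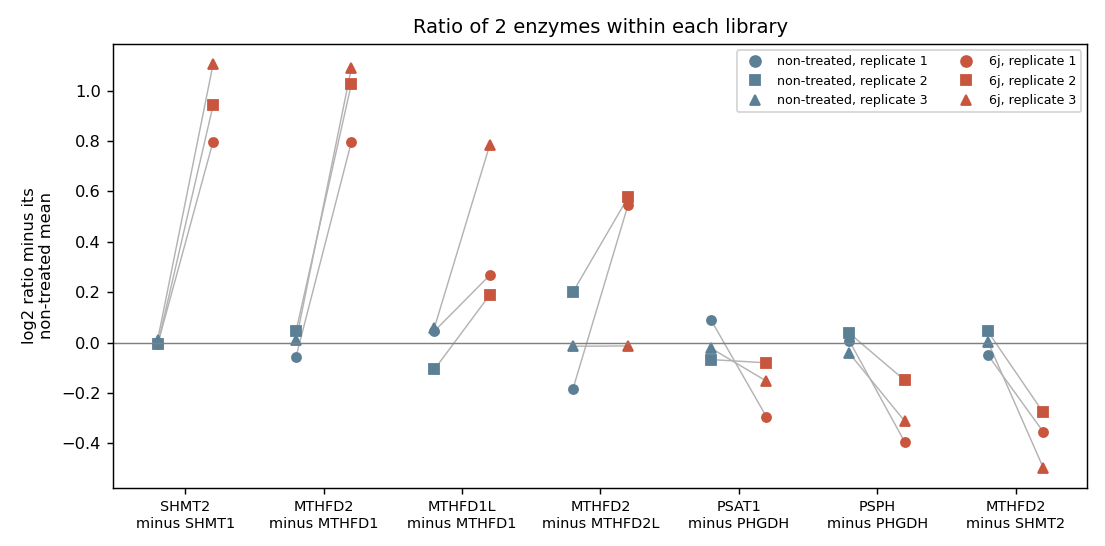
Log2 ratio of 2 enzymes within each library, less the non-treated mean of that ratio, for the 7 pairs, with blue for non-treated and red for 6j treated libraries and grey lines joining the same replicate number. The red points lie above the blue for SHMT2 to SHMT1, MTHFD2 to MTHFD1 and MTHFD1L to MTHFD1, below for the last 3 pairs, and overlap for MTHFD2 to MTHFD2L.

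The genes around these steps were read from 7 further lists, of which 58 genes reported here passed the filter on low counts. Of the 58, 7 were called higher, beside 2.48% of all rows, and 1 lower, beside 1.12%, and their median log2 fold change was −0.02. Of the 13 tested genes of the folate cycle and folate handling that are reported here, 1 was called lower. SLC19A1, the reduced folate carrier, was at 23.9 to 32.5 CPM in non-treated against 14.4 to 22.2 CPM in 6j treated libraries, and fell by 0.71 on the log2 scale (adjusted p = 0.0442, edgeR's quasi-likelihood test with Benjamini-Hochberg adjustment). Of the fits that left out 1 library, the call held only in the one without 6j replicate 1, and the adjusted p was 0.0542 to 0.168 in the others. It held with the replicate block (adjusted p = 0.000645) and in DESeq2 (adjusted p = 0.00286). TYMS, thymidylate synthase, had a log2 fold change of −0.51 (adjusted p = 0.0112), under the fold threshold.

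No gene was called among 5 of glycine cleavage and choline-derived one-carbon units, 8 of the methionine cycle, 2 of the folate-dependent purine steps and 7 of glycolysis around 3-phosphoglycerate. Over all rows 2.48% were called higher and 1.12% lower, so the lack of calls in lists this short is not read as a result. DESeq2 called none of these genes either, and at an unadjusted p under 0.05 in edgeR 1 gene was lower in each of the 4 lists and 1 of the methionine cycle was higher. The share of all rows at that unadjusted p was not counted, so these counts are not read as a result. The medians of these lists were −0.17, 0.02, −0.22 and −0.08 on the log2 scale. The smallest adjusted p in the first was that of ALDH7A1 (0.0261, edgeR), with a log2 fold change of −0.43, and in the second that of AHCYL1 (0.0377), with 0.33. ATIC, which uses formyl folate in purine synthesis, had a log2 fold change of −0.31 (adjusted p = 0.0569). PGAM1, which draws 3-phosphoglycerate on toward pyruvate, had one of −0.32 (adjusted p = 0.13). The largest rises were larger but not called. DMGDH, of the first list, had 0 to 17 counts in non-treated and 29 to 32 in 6j treated libraries, a log2 fold change of 1.83 (adjusted p = 0.225, edgeR). ENO2, of glycolysis, was at 22.1 to 49.2 CPM against 34.8 to 147 CPM, a log2 fold change of 1.21 (adjusted p = 0.333, edgeR). GLDC, the decarboxylase of glycine cleavage, did not pass the filter on low counts.

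Of 14 tested genes that carry or use serine, 3 were called higher and 0 lower, beside 2.48% and 1.12% of all rows. CBS, which joins serine and homocysteine in transsulfuration, was at 14.8, 17.4 and 15.1 CPM in non-treated and 41.7, 34.8 and 38.2 CPM in 6j treated replicates 1 to 3, a log2 fold change of 1.28 ± 0.11 (SE, adjusted p = 0.00103, edgeR's quasi-likelihood test with Benjamini-Hochberg adjustment). The neutral amino acid carriers SLC1A4 and SLC1A5 rose by 1.00 (adjusted p = 0.0116) and 0.80 (adjusted p = 0.00489) on the log2 scale, the first losing its call without non-treated replicate 1 (adjusted p = 0.0651). SFXN1, the main mitochondrial serine carrier, had a log2 fold change of −0.13 (adjusted p = 0.377). With the replicate block 4 were higher and 1 lower, beside 4.01% and 2.46% of all rows, the added ones being SFXN3 (adjusted p = 0.00458) and SPTLC3 (adjusted p = 0.00876). SFXN3 was also called, with no block, when 6j replicate 1 was left out (adjusted p = 0.0226), and DESeq2 called it too.

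Of 9 listed regulators and related stress response genes, 4 were called higher and 0 lower, beside 2.48% and 1.12% of all rows. ATF4 was at 313, 349 and 290 CPM in non-treated and 693, 660 and 686 CPM in 6j treated replicates 1 to 3, a log2 fold change of 1.10 ± 0.09 (SE, adjusted p = 0.000839, edgeR's quasi-likelihood test with Benjamini-Hochberg adjustment). DDIT3, TRIB3 and ATF3, further genes of the amino acid and ER stress response, rose by 2.27, 1.94 and 1.60 on the log2 scale. MYC had a log2 fold change of −0.26 (adjusted p = 0.0756), NFE2L2 of 0.17 (adjusted p = 0.221) and KDM4C of 0.19 (adjusted p = 0.423).

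**Figure D5:**
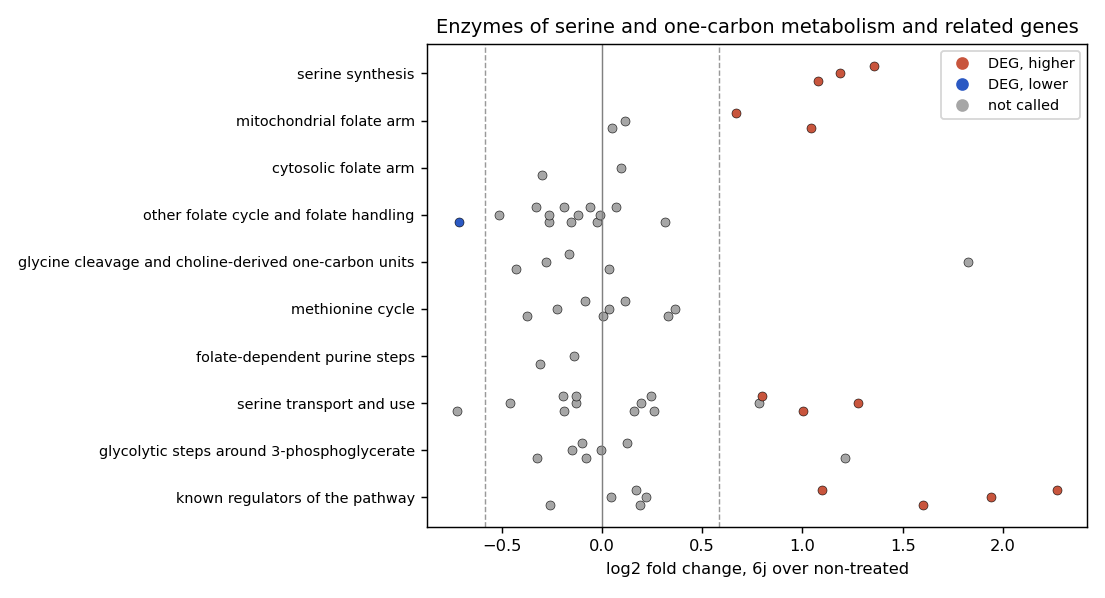
Log2 fold change of each tested gene of the 3 groups of enzymes and of 7 lists of related genes, red where called higher, blue where called lower and grey where not called, with dashed lines at a 1.5-fold change. The 3 serine synthesis genes and 2 mitochondrial enzymes are red, and elsewhere red points are found for 3 genes of serine transport and use. The list of regulators and related stress response genes holds 4 more.

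The profile of the 9 enzymes over the 6 libraries was taken as the mean of their standardized log2 CPM, and 12203 other genes were ranked by Pearson's r with it. Each member is itself part of this profile, so its own r is partly fixed by construction and is given as description only. PHGDH (0.968) and SHMT2 (0.971) followed the profile most closely among the members, SHMT1 stood at 0.757, MTHFD1L at 0.424, ALDH1L2 at 0.106 and MTHFD1 at −0.829. The 5 genes with the highest r were C16orf58 (0.9998), ARID3B (0.996), CBS (0.995), THAP8 (0.995) and ZNF888 (0.991). Of these ARID3B, CBS and THAP8 were called higher, with log2 fold changes of 0.72, 1.28 and 1.35, while C16orf58 had one of 0.28 and ZNF888 one of 0.52. These r are over 6 points that share the split into 2 groups and the replicate numbers, and they describe these libraries only.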

How the data were processed

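Libraries of oligo(dT)-enriched RNA were made from 6j treated and non-treated MHCC-97H cells, and the authors deposited raw counts per gene with 1 column for each library. The submitters' processing notes name GRCh38, HISAT2 and StringTie. The counting program, its strand setting and the annotation are not given in the sources used here. All 19974 Ensembl identifiers of the table were found in GENCODE version 29, and its other 5471 rows are numbered new genes.

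From the deposited counts, low rows were removed by filterByExpr (minimum count 10, minimum total 15), TMM factors were taken and a robust quasi-likelihood model with no covariate was fitted in edgeR 4.0.16 with limma 3.58.1 under R 4.3.3. Thresholds were a Benjamini-Hochberg adjusted p of 0.05 and a fold change of 1.5. Intervals are 95% intervals of the fit, and log2 CPM used a prior count of 2. Depth of 31533403 to 38018349 counts limited only ALDH1L2 among the members. DESeq2 1.42.0 was an alternative, beside other normalizations, filters and thresholds, a replicate block and the omission of each library. Ratios were tested in Python 3.11.15 with scipy 1.17.1.

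The 9 enzymes, the further lists and the tests were chosen with earlier results of these data known. Genes were named by a rule, namely every enzyme, the called genes of each further list (at most 4) or, with none called, the gene with the smallest adjusted p, the partners in the ratios, and the 5 genes most like the enzymes among Ensembl rows with a mean of at least 1 CPM. TYMS, GLDC, DMGDH, ENO2, SFXN1, SFXN3, SPTLC3, MYC, NFE2L2 and KDM4C, the opposite-strand genes and KRT8 were named after their values were seen. The transcript length used for RPKM was chosen after the lengths had been seen. What a replicate number marks is not stated. Deviations from the group means correlated at 0.171, 0.18 and 0.312 over 15957 genes for libraries of the same number, and at −0.231 to 0.0795 otherwise, so the numbers were taken to pair the libraries. The main fit and the permutation tests were still without the block, which was an alternative fit. In the folate handling list and the hepatocyte markers, 1 gene each is not reported here and is left out of the counts of its list.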

Additional observations from a re-analysis of the deposited data

How the results depend on the processing

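PHGDH, PSAT1, PSPH, SHMT2 and MTHFD2 kept their calls under other size factors, other filters on low counts, DESeq2, the replicate block and the omission of each library, with an adjusted p of at most 0.0429. Without 1 library, the log2 fold change ranged from 1.30 to 1.46 for PHGDH, from 1.08 to 1.26 for PSAT1, from 0.95 to 1.20 for PSPH, from 1.00 to 1.08 for SHMT2 and from 0.62 to 0.69 for MTHFD2. The formal test of a 1.5-fold change called 3 members higher. ALDH1L2 ranged from −0.31 to 0.34 without 1 library, reversing to −0.14 without non-treated replicate 1 and to −0.31 without 6j replicate 3. The number of members called higher was 5 without any 1 library. The median of the members was 0.86 when a filter of 1 CPM dropped ALDH1L2, and 0.62 to 0.69 without 1 library, the lowest being without 6j replicate 2. The number of DEGs, 574, became 1033 with the replicate block, 1462 with no fold threshold, 1136 with an unadjusted p and 32 in the formal test. It was 186 to 772 without 1 library. The low counts were 186 (non-treated replicate 1 left out), 193 (6j replicate 2) and 379 (non-treated replicate 3), and the cause was not tested. With the replicate block the SE of PHGDH was 0.07, and the block moved the adjusted p of MTHFD1 under 0.05 but changed no call of a member. Within replicate numbers, the sign-flip p of each ratio was 0.25, the smallest that 3 pairs allow, and no ratio changed direction under any of its 8 alternatives. Counting depth limits ALDH1L2, with 18 to 42 counts per library.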
